A study of Mus musculus with 40 samples.

Results

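Follicular B cells that had spent 1 day with CpG in culture were compared with follicular B cells taken from mice 1 day after an intravenous dose of hen egg lysozyme (HEL), in cells that keep Ikaros. The comparison used 9 of the 40 samples of the series, and all genes that passed a filter on low values. The 4 CpG samples were Cd23-cre Ikzf1(fl/+) cells, stimulated in vitro and then sorted. Their Cre is expressed from the regulatory region of Cd23 and so acts in mature B cells, and they carry 1 floxed and 1 wild-type Ikzf1 allele. The 5 HEL samples were Ikzf1(fl/fl) cells without Cre, sorted directly from the mice, and both of their Ikzf1 alleles were floxed but not exposed to Cre. All 9 samples were labelled C57BL/6 and carried the MD4 transgene, which gives nearly all B cells an antigen receptor (BCR) for HEL. Neither the age of the mice nor the doses of CpG and HEL were given in the sources used here. The labels do not say that replicates came from separate mice or cultures, so p-values measure only the spread between these samples.

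CpG DNA is sensed by Toll-like receptor 9 (TLR9) in endosomes, where the adaptor Myd88 and the kinases of the Irak family lead to NF-kB and to cytokine, growth and survival genes. HEL binds the MD4 receptor at the cell surface, where the Cd79a and Cd79b chains pass the signal to Src-family kinases, calcium and the Ras pathway, and genes such as Egr3, Nr4a1 and Nab2 follow. Soluble antigen without T cell help is known to leave B cells poorly responsive, a state called anergy, while CpG alone can drive follicular B cells into division. Ikaros, encoded by Ikzf1, is a zinc finger transcription factor of lymphocytes. The title of the study links it both to anergy and to the restraint of TLR signalling.

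Stimulus was not the only difference between the groups. The CpG cells had been cultured and the HEL cells had not, and the CpG cells carried Cre and the HEL cells did not. Where Cre has acted, the CpG cells keep only their wild-type Ikzf1 allele intact, while the HEL cells keep both alleles. The library numbers in the file headers begin with 49 for the CpG libraries and with 57 for the HEL libraries. These differences and the stimulus cannot be told apart. All 4 CpG libraries and HEL replicates 4 and 5 held transcripts of the Y chromosome, and HEL replicates 1 to 3 did not. The CpG library numbers form 2 blocks, replicates 1 and 2 and replicates 3 and 4, and several genes below followed these blocks. Read totals recovered from the values were 12126702 to 20181057 per library.

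The sort was checked with lists of marker genes. The summed level of 10 follicular B cell markers was 2880 to 3803 TPM (a gene's share of all transcripts, corrected for gene length) in CpG cells and 17243 to 18664 TPM in HEL cells. The B cell genes Cd79a and Ighm were abundant in both groups, with 1184 ± 269 TPM of Cd79a in CpG cells and 7608 ± 345 TPM in HEL cells (SD, n = 4 and 5). Markers of T cells summed to 0.339 to 9.60 TPM in CpG cells and 3.44 to 6.33 TPM in HEL cells, with Cd3e at no more than 0.273 TPM in any of these libraries. Markers of NK cells summed to 2.91 to 5.84 TPM in CpG cells and 9.86 to 12.6 TPM in HEL cells, of which Prf1 made 2.58 to 3.24 TPM and 9.27 to 12.4 TPM. Monocyte and macrophage markers summed to 1.07 to 16.2 TPM against 11.9 to 17.0 TPM, erythroid markers to 0.615 to 1.27 TPM against 0.853 to 2.11 TPM, and platelet markers to 0 to 0.188 TPM against 1.30 to 4.94 TPM, each CpG range given before the HEL range. Dendritic cell markers summed to 181 to 1533 TPM in CpG cells, of which Bst2, also an interferon-stimulated gene, made 121 to 1479 TPM. In HEL cells they summed to 143 to 414 TPM. Of the defining dendritic cell markers, Flt3 rose, with 12 to 27.2 TPM in CpG cells and 2.68 to 5.83 TPM in HEL cells, Zbtb46 fell, with 0 to 0.209 TPM in CpG cells and 0.967 to 1.86 TPM in HEL cells, and Itgax and Siglech were at no more than 0.457 TPM in any of these libraries. Plasma cell markers summed to 150 to 198 TPM in CpG cells and 130 to 152 TPM in HEL cells, and stromal and endothelial markers to 59.0 to 80.0 TPM and 133 to 189 TPM, mostly Pecam1. Neutrophil markers were at 0.101, 0.251, 15.6 and 126 TPM in CpG replicates 1 to 4 and at 0.185 to 0.595 TPM in HEL cells. The part of these other cells in the results below was not tested.

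Of 10551 genes tested, 5229 were higher in CpG cells (49.6%) and 3238 lower (30.7%) at an adjusted p under 0.05 (limma on log2(TPM + 1), Benjamini-Hochberg adjustment over all genes). With the libraries rescaled by the median of their gene ratios, 4251 genes were higher and 4256 lower, so that the excess of higher genes, 61.8% of these calls with the TPM as deposited, was not seen. A gene list with shares near 49.6% and 30.7% does not stand apart from all genes. Most genes therefore passed this test, and the account that follows is kept to genes that differed 4-fold or more with no overlap between the 4 CpG and the 5 HEL values. By this rule 756 genes were higher (7.17%) and 370 were lower (3.51%) in CpG cells. Differences of at least 8-fold were found for 236 higher and 97 lower genes, and differences of at least 16-fold for 68 higher and 32 lower genes. All log2 differences below are CpG minus HEL on the log2(TPM + 1) scale, given with their standard error. For genes of low TPM this scale gives less than the full fold.

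**Figure D1:**
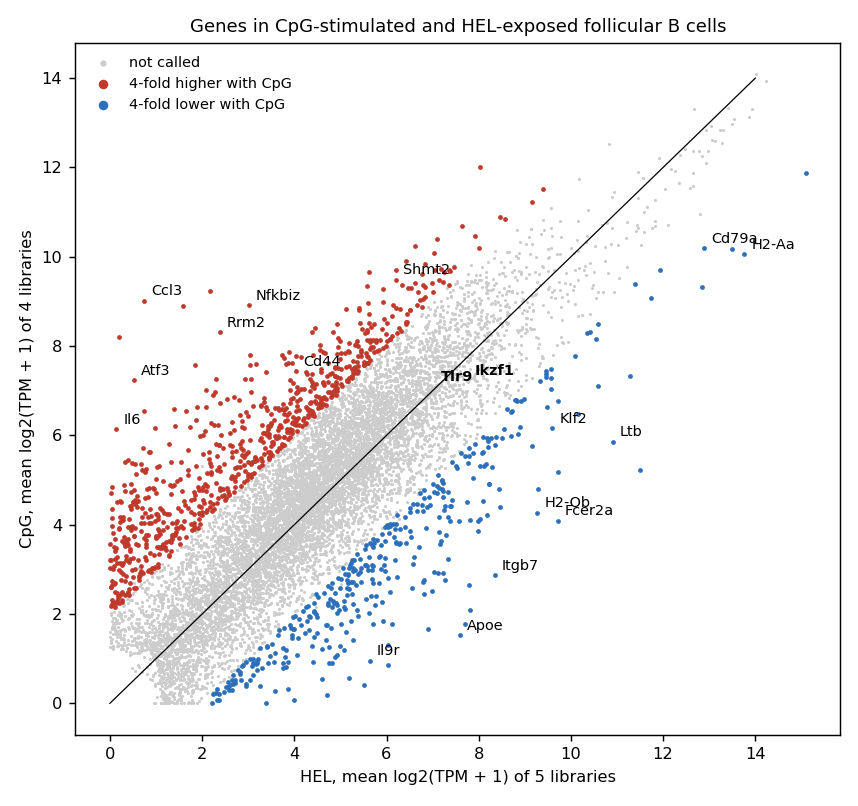
Each point is 1 of the 10551 genes tested, with its mean log2(TPM + 1) in CpG libraries on the y axis and in HEL libraries on the x axis, and equal levels on the diagonal line. The 756 genes higher by 4-fold or more with no overlap are drawn in red above the line and the 370 lower ones in blue below it, with Tlr9 and Ikzf1 in bold near the line.

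TPM is a share of all transcripts, so a change in very abundant transcripts moves every other value. The median difference over all genes was 0.24. With the same rescaling, called the second scaling below, 567 genes were 4-fold higher and 481 lower, so that the higher share of the 4-fold calls was 54.1%, against 67.1% with the TPM as deposited. All 567 and all 370 were called under both scalings. The second scaling moved the median over all genes to -0.01, and small differences have no firm direction here. Of the 4-fold genes, 98 higher and 52 lower ones are marked in the files as overlapping another gene model or as duplicated, and some of their reads may belong to a neighbour. Among the genes described below this applies to Cebpd, Ccna2, Mybl2, Mxd3, Bysl, Cdc25a, Tpi1, Lss, Shmt2, Ppat and Prdx1 of the higher genes, and to Ltb, Cd72, Txnip, Pdcd4, Nab2, Dgka, H2-Oa, Il27ra, Cd27, Ankrd37 and Lck of the lower ones. It also applies to Nfkb2, Lta, H2-D1 and Bhlhe40, which were not called 4-fold.

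The promoters of 5 genes of the comparison are shown, because each carries in plain letters a motif of a factor family known for the gene group it belongs to. The sequences are RefSeq promoters of build GRCm38.p6, from 250 bases before to 50 bases after the start of the gene, written 5′ to 3′ on the strand of the gene, and these genes were picked after their values and motifs were seen. Il6 (chromosome 5, 30012864 to 30013163, plus strand) encodes interleukin 6, and Ltb (chromosome 17, 35194257 to 35194556, plus strand) encodes lymphotoxin beta. Capitals mark a match to GGANTTTCC, the letters searched for an NF-kB site on both strands, which starts 43 bases before the start in Il6 and 87 bases before it in Ltb, where it lies on the opposite strand. Mcm6 (chromosome 1, 128359656 to 128359955, minus strand), a subunit of the replication helicase, has TTTGGCGC, the letters searched for an E2F site, at 110 and 47 bases before its start. Ccnb2 (chromosome 9, 70421505 to 70421804, minus strand), cyclin B2, has CCAAT, the box bound by NF-Y, at 87, 54 and 21 bases before its start. Cdk4 (chromosome 10, 127063285 to 127063584, plus strand), the kinase partner of D cyclins, has CACGTG, the E-box bound by Myc and its relatives, at 172, 118, 98 and 11 bases before its start.
Il6: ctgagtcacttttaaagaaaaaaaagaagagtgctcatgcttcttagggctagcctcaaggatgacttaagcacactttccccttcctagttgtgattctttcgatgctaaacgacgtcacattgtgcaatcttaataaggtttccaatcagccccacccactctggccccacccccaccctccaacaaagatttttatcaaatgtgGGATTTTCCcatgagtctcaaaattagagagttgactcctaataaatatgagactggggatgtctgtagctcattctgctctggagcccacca
Ltb: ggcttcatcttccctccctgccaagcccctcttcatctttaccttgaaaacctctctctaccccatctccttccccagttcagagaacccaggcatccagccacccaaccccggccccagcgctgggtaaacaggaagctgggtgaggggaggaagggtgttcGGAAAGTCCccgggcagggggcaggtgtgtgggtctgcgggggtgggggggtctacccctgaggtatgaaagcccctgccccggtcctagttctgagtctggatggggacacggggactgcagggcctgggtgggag
Mcm6: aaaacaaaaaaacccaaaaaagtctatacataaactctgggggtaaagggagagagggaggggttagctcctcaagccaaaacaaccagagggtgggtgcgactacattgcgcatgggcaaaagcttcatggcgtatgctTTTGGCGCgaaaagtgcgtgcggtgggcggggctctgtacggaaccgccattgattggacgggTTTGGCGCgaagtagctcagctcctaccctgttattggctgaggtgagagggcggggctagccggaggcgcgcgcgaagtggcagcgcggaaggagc
Ccnb2: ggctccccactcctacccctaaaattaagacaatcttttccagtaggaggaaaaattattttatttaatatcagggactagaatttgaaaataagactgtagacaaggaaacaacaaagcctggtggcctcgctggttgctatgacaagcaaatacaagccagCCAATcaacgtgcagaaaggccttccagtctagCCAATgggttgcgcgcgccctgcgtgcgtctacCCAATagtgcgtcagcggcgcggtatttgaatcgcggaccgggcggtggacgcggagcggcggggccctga
Cdk4: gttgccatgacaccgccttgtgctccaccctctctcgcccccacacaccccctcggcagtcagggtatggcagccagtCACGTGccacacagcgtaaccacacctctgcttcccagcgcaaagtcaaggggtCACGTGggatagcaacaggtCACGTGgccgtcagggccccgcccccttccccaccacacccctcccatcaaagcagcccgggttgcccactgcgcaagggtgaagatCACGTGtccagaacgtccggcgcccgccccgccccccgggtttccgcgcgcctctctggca

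Il6 and Ltb stood at opposite ends of the comparison with the same kind of match. Il6 was 44.1, 60.8, 101 and 85.7 TPM in the 4 CpG libraries and 0, 0, 0.251, 0.156 and 0.0951 TPM in the 5 HEL libraries. Ltb was 93.4, 56.7, 40.1 and 49.6 TPM in CpG cells and 1662, 2084, 1579, 1986 and 2409 TPM in HEL cells. Neither gene overlapped between the groups, with log2 differences of 6.01 ± 0.21 for Il6 and -5.05 ± 0.21 for Ltb (limma adjusted p 9.98e-10 and 3.66e-09). Mcm6 was 358, 520.1, 480.3 and 508 TPM in CpG cells, against 48.3, 40.7, 49, 35.6 and 34.3 TPM in HEL cells, a log2 difference of 3.46 ± 0.14. Ccnb2 was 13.3, 15.8, 29.1 and 40.7 TPM in CpG cells and 2.99, 2.28, 3.53, 2.37 and 1.21 TPM in HEL cells, a log2 difference of 2.79 ± 0.31. Cdk4 was 885, 869, 869 and 858 TPM in CpG cells and 166, 169, 187, 179 and 173 TPM in HEL cells, the most even of these genes within each group, with a log2 difference of 2.31 ± 0.05.

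Over all 32851 promoters in the table, of 27025 genes, the NF-kB letters were found in 1.25%, CACGTG in 7.15%, the E2F letters in 0.514% and CCAAT in 37.4%. CCAAT was in 20 of 22 promoters of the mitosis genes (90.9%) and in 17 of 27 promoters of the S phase genes (63.0%). The E2F letters were in 6 of 27 S phase promoters (22.2%), CACGTG in 5 of 22 promoters of ribosome biogenesis genes (22.7%), and the NF-kB letters in 4 of 20 promoters of known NF-kB targets (20%). Some genes have more than 1 promoter in the table. These shares describe letters within the 300 bases and say nothing of binding. No share is given for the 4-fold genes as a whole, since only 881 of the 1126 (78.2%) have a promoter in the table.

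The receptor for CpG and the parts that carry its signal held a single 4-fold call. Tlr9 was 138, 109, 147 and 151 TPM in CpG cells and 159, 135, 149, 118 and 95.7 TPM in HEL cells. The groups overlapped almost fully, with a log2 difference of 0.06 ± 0.15 (limma adjusted p 0.71). Of the 24 TLR signalling genes tested, 6 were higher and 11 lower at an adjusted p under 0.05, and their median difference was -0.18 beside 0.24 over all genes. One was called 4-fold, Slc15a4, an endosomal histidine transporter required for TLR7 and TLR9 responses, which fell to 31.1, 25.2, 24.9 and 26.7 TPM in CpG cells, against 139, 143, 138, 153 and 162 TPM in HEL cells (log2 difference -2.41 ± 0.08). Tlr1, which pairs with TLR2, and Cd180, a TLR-like receptor of B cells, fell with log2 differences of -1.62 ± 0.14 and -1.06 ± 0.10. No NF-kB subunit rose by the test. Of 6 tested, 3 fell and none rose, with Nfkb2 at 117 to 133 TPM in CpG cells and 188 to 214 TPM in HEL cells, and Relb and Rel at log2 differences of -0.53 ± 0.07 and -0.51 ± 0.07.

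Feedback regulators of the TLR and NF-kB pathway, most of them inhibitors, held some of the widest differences. Nfkbiz encodes IκBζ, a nuclear cofactor of NF-kB that is required for Il6 expression after TLR signals. It was 553, 501, 443 and 440.4 TPM in CpG cells and 6.96, 8.37, 9.29, 5.96 and 5.3 TPM in HEL cells, with the groups far apart and a log2 difference of 5.91 ± 0.14. Atf3, a stress-induced factor that restrains inflammatory genes, was 109, 139, 191 and 176 TPM in CpG cells against 0.699, 0.562, 0.276, 0.301 and 0.366 TPM in HEL cells (log2 difference 6.72 ± 0.16). Tnip3, a partner of the deubiquitinase A20, was 16.5, 16.6, 9.76 and 11.1 TPM in CpG cells and 0, 0.0491, 0.0723, 0.0451 and 0.0548 TPM in HEL cells (log2 difference 3.76 ± 0.15). Zc3h12a, the RNase Regnase-1, which degrades Il6 mRNA, rose by 2.10 ± 0.12 and kept an adjusted p under 0.05 but not the 4-fold call under the second scaling or without CpG replicate 1. Sigirr, an inhibitory receptor of the TLR and interleukin 1 receptor family, was the only one of 17 such genes that fell 4-fold, with 5.95, 5.82, 6.86 and 7.03 TPM in CpG cells and 39.9, 38.8, 41.7, 40.9 and 40.8 TPM in HEL cells. In all, 11 of the 17 rose and 5 fell at an adjusted p under 0.05, with a median of 0.97. Over all genes 49.6% rose and 30.7% fell, with a median of 0.24.

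Known NF-kB targets went in both directions, in shares close to those over all genes (49.6% higher and 30.7% lower). Of 20 tested, 11 rose and 6 fell, 6 rose 4-fold and none fell 4-fold, with a median of 0.83. Beside Il6, Cd44, the hyaluronan receptor, was 148, 167, 176 and 203 TPM in CpG cells and 16.4, 13.3, 17, 13.9 and 17.5 TPM in HEL cells. Gadd45b, a stress sensor induced by NF-kB, was 315, 303, 477 and 375 TPM in CpG cells and 54.8, 52.9, 51.8, 55.5 and 44.4 TPM in HEL cells. Both were separated fully, by 3.39 ± 0.11 and 2.78 ± 0.13. The anti-apoptotic Bcl2a1d and Bcl2l1 rose by 2.63 ± 0.21 and 2.05 ± 0.08, Bcl2l1 short of 4-fold under the second scaling. Bcl2a1d belongs to a family of near-identical copies among which reads may be split. The targets that fell include Lta and Icam1, with mean levels of 12.9 ± 7.1 TPM in CpG cells and 35.5 ± 2.11 TPM in HEL cells for Lta, and 32.3 ± 3.78 TPM and 90.5 ± 5.08 TPM in the same order for Icam1 (SD, n = 4 and 5). Lta and Icam1 were named after their values were seen.

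Cytokine and chemokine genes were led by Ccl3, the most raised named gene of the comparison. Ccl3, a chemokine for T cells and myeloid cells, was 744, 545, 478 and 365 TPM in CpG cells and 1.28, 0.468, 0.46, 0.538 and 0.785 TPM in HEL cells. No HEL library exceeded 1.28 TPM, and the log2 difference was 8.26 ± 0.20 (limma adjusted p 1.19e-10). Ccl4, its neighbour in function, was 25.9, 50, 99.5 and 89.9 TPM in CpG cells against 7.25, 5.04, 8.8, 7.47 and 7.83 TPM in HEL cells, a log2 difference of 2.86 ± 0.34, with the 2 highest values in CpG replicates 3 and 4. Il10, an anti-inflammatory cytokine of activated B cells, was 3.53, 4.06, 21.9 and 13 TPM in CpG cells and 0, 0.0708, 0, 0 and 0 TPM in HEL cells, where 1 read was recovered over the 5 libraries. Its CpG values fell into the 2 library blocks. The log2 difference of 3.19 ± 0.42 depends on the pseudocount, and the ratio of recovered reads per library total was 701 (95% exact interval 125 to 27772, counting error only). Of 10 cytokine genes tested, 4 rose and 4 fell, 2 rose 4-fold (Il6 and Il10) and 1 fell 4-fold (Ltb). The median of this list was 0.19, or -0.06 under the second scaling. Of 4 chemokine genes tested, Ccl3 and Ccl4 rose and 2 did not pass.

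Among the 12 most raised genes by the naming rule were several transcription factors. Cebpd, which encodes C/EBPδ, a factor of inflammatory gene expression, was 432, 260.1, 289.7 and 235 TPM in CpG cells and 0, 0.123, 0.362, 0.188 and 0.0914 TPM in HEL cells. Gfi1b, a zinc finger repressor known from erythroid and megakaryocyte cells, was 38.7, 42.1, 40 and 45.9 TPM in CpG cells and 0.404, 0.355, 0.299, 0.233 and 0.0567 TPM in HEL cells. Both genes were separated fully between the groups, with log2 differences of 8.02 ± 0.16 and 5.08 ± 0.10. Alpl, tissue-nonspecific alkaline phosphatase, was 67.2, 84.7, 116 and 112 TPM in CpG cells, against 0.679, 0.744, 1.03, 0.57 and 0.346 TPM in HEL cells (log2 difference 5.82 ± 0.17). The others reported here were Ccl3, Atf3, Il6, Nfkbiz and the cell cycle genes Rrm2, Ccna2, Mybl2 and Pbk. The adjusted p was at most 2.37e-09 for each of the 12.

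The 12 most lowered genes came from several groups, among them follicular, homing, antigen presentation and cholesterol export genes. Faim3 encodes the Fc receptor for IgM, and was 31, 33.2, 33.4 and 52.3 TPM in CpG cells and 3157, 2809.5, 3351, 2586 and 2717 TPM in HEL cells, a log2 difference of -6.27 ± 0.14. Ephx1, microsomal epoxide hydrolase, was 2.31, 1.85, 2.6 and 3.06 TPM in CpG cells and 204, 206, 217, 191 and 217 TPM in HEL cells. Pglyrp1, a peptidoglycan recognition protein, was 6.1, 3.44, 1.02 and 4.03 TPM in CpG cells and 223, 218, 202, 217 and 262 TPM in HEL cells. Both were separated fully, with log2 differences of -5.92 ± 0.10 and -5.73 ± 0.28. Vpreb3, a protein that binds immunoglobulin chains in B cell development, was 2.87 to 8.94 TPM in CpG cells and 210.0 to 245 TPM in HEL cells (log2 difference -5.14 ± 0.21). The rest of the 12 were Apoe, Fcer2a, Itgb7, Ccr6, Egr3, Abca1, Ltb and H2-Ob, described with their groups.

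**Figure D2:**
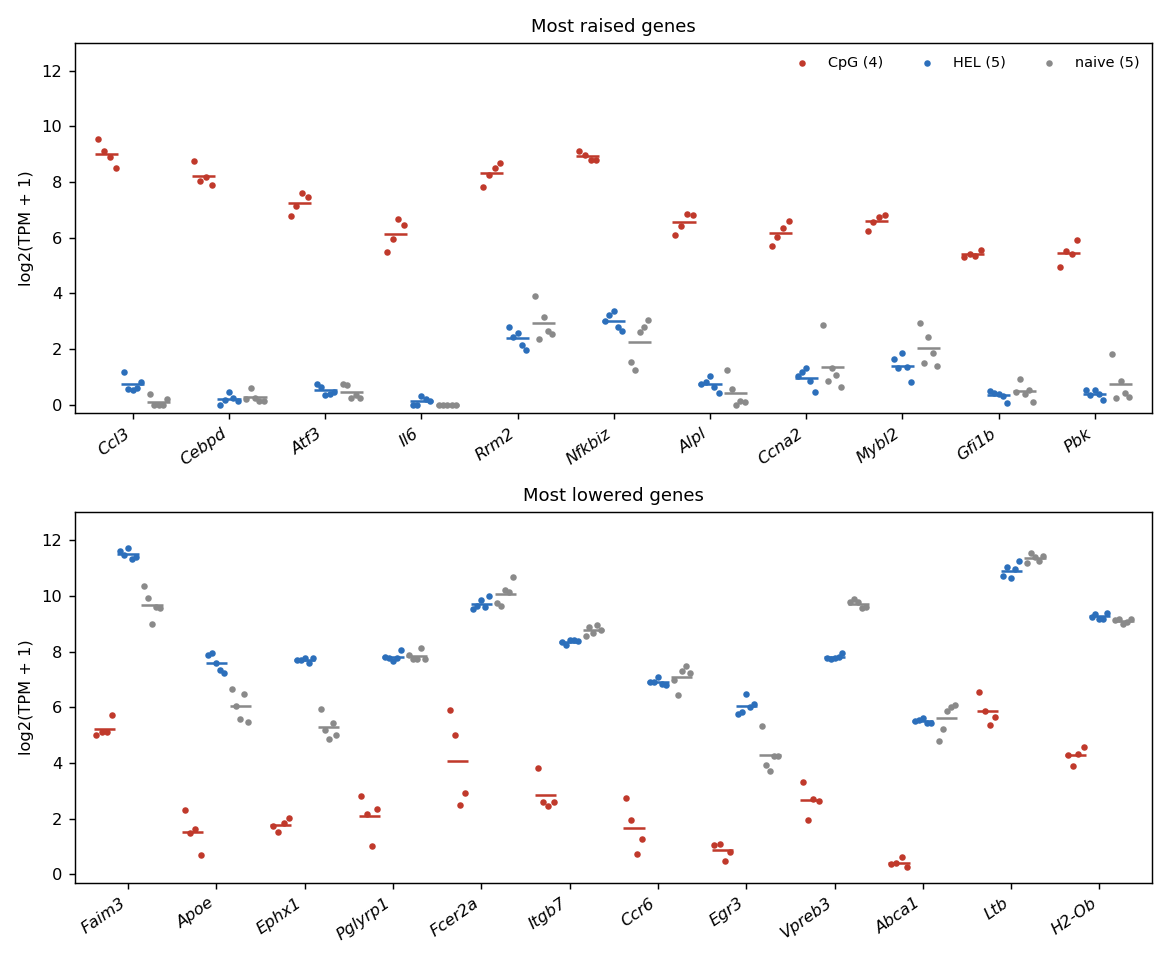
Level on a log2(TPM + 1) axis of 11 of the 12 most raised (top) and the 12 most lowered (bottom) genes, with 1 point per CpG, HEL and naive library from left to right and a bar at each mean. The 4 CpG values and the 5 HEL values of each gene lie apart, from Ccl3 at 365 to 744 against 0.46 to 1.28 TPM to H2-Ob at 13.8 to 23 against 576 to 669.6 TPM.

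DNA replication genes were higher in CpG cells almost without exception. Of 28 S phase genes tested, 27 rose at an adjusted p under 0.05 and 26 rose 4-fold, with a median of 3.40 beside 0.24 over all genes. Under the second scaling 27 rose and 1 fell. Rrm2, the regulated subunit of ribonucleotide reductase, was 227, 306, 359 and 406 TPM in CpG cells and 6.0, 4.37, 4.91, 3.43 and 2.89 TPM in HEL cells. Mcm10 and Cdc6, which load and activate the replication helicase, were 33.5 to 64.2 and 27.6 to 48.8 TPM in CpG cells, and 0.296 to 0.926 and 0.154 to 0.744 TPM in HEL cells. The log2 differences were 5.93 ± 0.20, 4.99 ± 0.19 and 4.82 ± 0.19, and no CpG library came near the HEL range. Tyms, thymidylate synthase, rose by 4.80 ± 0.15, Uhrf1, which maintains DNA methylation, by 4.77 ± 0.16, and Cdc45, a part of the active helicase, by 4.56 ± 0.16.

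Mitosis genes followed. All 24 tested rose and 22 rose 4-fold, with a median of 3.38, and 23 of them rose under the second scaling. Cyclin A2 (Ccna2) was 51.3, 64.6, 79.8 and 96.8 TPM in CpG cells and 1.05, 1.28, 1.49, 0.816 and 0.368 TPM in HEL cells. Cdk1, the mitotic kinase, was 30.2, 45.7, 59 and 68.8 TPM in CpG cells against 0.966, 1.0, 1.24, 0.565 and 0.47 TPM in HEL cells. In CpG replicates 3 and 4 both genes were higher than in replicates 1 and 2, and the log2 differences were 5.20 ± 0.21 and 4.77 ± 0.22. The same split of the libraries was seen for Plk1 (35.2, 42.2, 81.3 and 77.2 TPM in CpG cells, 0.891 to 2.56 TPM in HEL cells) and Birc5 (22.6, 31.2, 47.8 and 56.5 TPM in CpG cells, 0.333 to 1.1 TPM in HEL cells), a kinase and a chromosomal passenger protein of mitosis. Top2a, DNA topoisomerase II alpha, was lowest of the CpG libraries in replicate 1, at 62.3, 148, 142 and 211 TPM in CpG cells and 2.14 to 5.22 TPM in HEL cells. Mybl2, a factor that switches on late cell cycle genes, and Pbk, a mitotic kinase, rose by 5.20 ± 0.20 and 5.05 ± 0.17.

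Regulators of the G1 phase did not share 1 direction. Of 13 tested, 9 rose and 3 fell, 7 rose 4-fold and 1 fell 4-fold. Cdk6 was 41, 34.5, 40.5 and 39.1 TPM in CpG cells and 3.39, 3.48, 4.23, 3.37 and 3.43 TPM in HEL cells, a log2 difference of 3.12 ± 0.09. Cyclin D2 (Ccnd2) was 243, 244, 404 and 378 TPM in CpG cells and 74.6, 59.8, 80.7, 71.3 and 38.2 TPM in HEL cells, a log2 difference of 2.28 ± 0.23 that was short of the 4-fold call within CpG replicates 1 and 2. The phosphatase Cdc25a rose by 2.70 ± 0.11. The inhibitor Cdkn1a (p21) rose as well, with 14.3, 25.9, 24.1 and 31.7 TPM in CpG cells and 0.954, 0.411, 0.627, 0.755 and 0.816 TPM in HEL cells (log2 difference 3.82 ± 0.20). Ccng2, a cyclin of resting cells, fell, with a log2 difference of -2.27 ± 0.08.

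Myc itself was 185, 217, 233 and 189 TPM in CpG cells and 54.6, 42.1, 62.5, 46.2 and 42.9 TPM in HEL cells. The ranges lay apart, and the log2 difference of 2.04 ± 0.12 was close enough to 4-fold that the call was lost under the second scaling, on recovered reads, and without CpG replicate 3, HEL replicate 2 or HEL replicate 5. Its antagonist Mxd4 was 78, 26.9, 21.3 and 15.3 TPM in CpG cells and 281, 321, 313, 317 and 258 TPM in HEL cells (log2 difference -3.32 ± 0.36), highest of the CpG libraries in replicate 1. Mxd3, a family member found in dividing cells, rose by 2.90 ± 0.25. Over the 10 Myc and Mxd network genes tested, 3 rose and 5 fell, with a median of -0.39.

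Ribosome biogenesis genes, many of them targets of Myc, rose without exception. All 24 tested passed, 16 of them 4-fold, under both scalings 24 rose, and the median was 2.28. Bysl, required for the small ribosomal subunit, was 102, 105, 103 and 99.2 TPM in CpG cells and 10.8, 12.7, 12.8, 13 and 13.6 TPM in HEL cells. Nop58, a core protein of box C/D ribonucleoproteins, was 234, 316, 255 and 265 TPM in CpG cells and 35.3, 31.7, 36.9, 33.4 and 39.3 TPM in HEL cells. The spread within each group was small beside the gap, with log2 differences of 2.93 ± 0.07 and 2.88 ± 0.09. Rrp12, Rrp9, Nop16 and Nop2, other factors of ribosome assembly and rRNA modification, rose by 2.82 ± 0.08, 2.78 ± 0.06, 2.71 ± 0.11 and 2.70 ± 0.08.

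**Figure D3:**
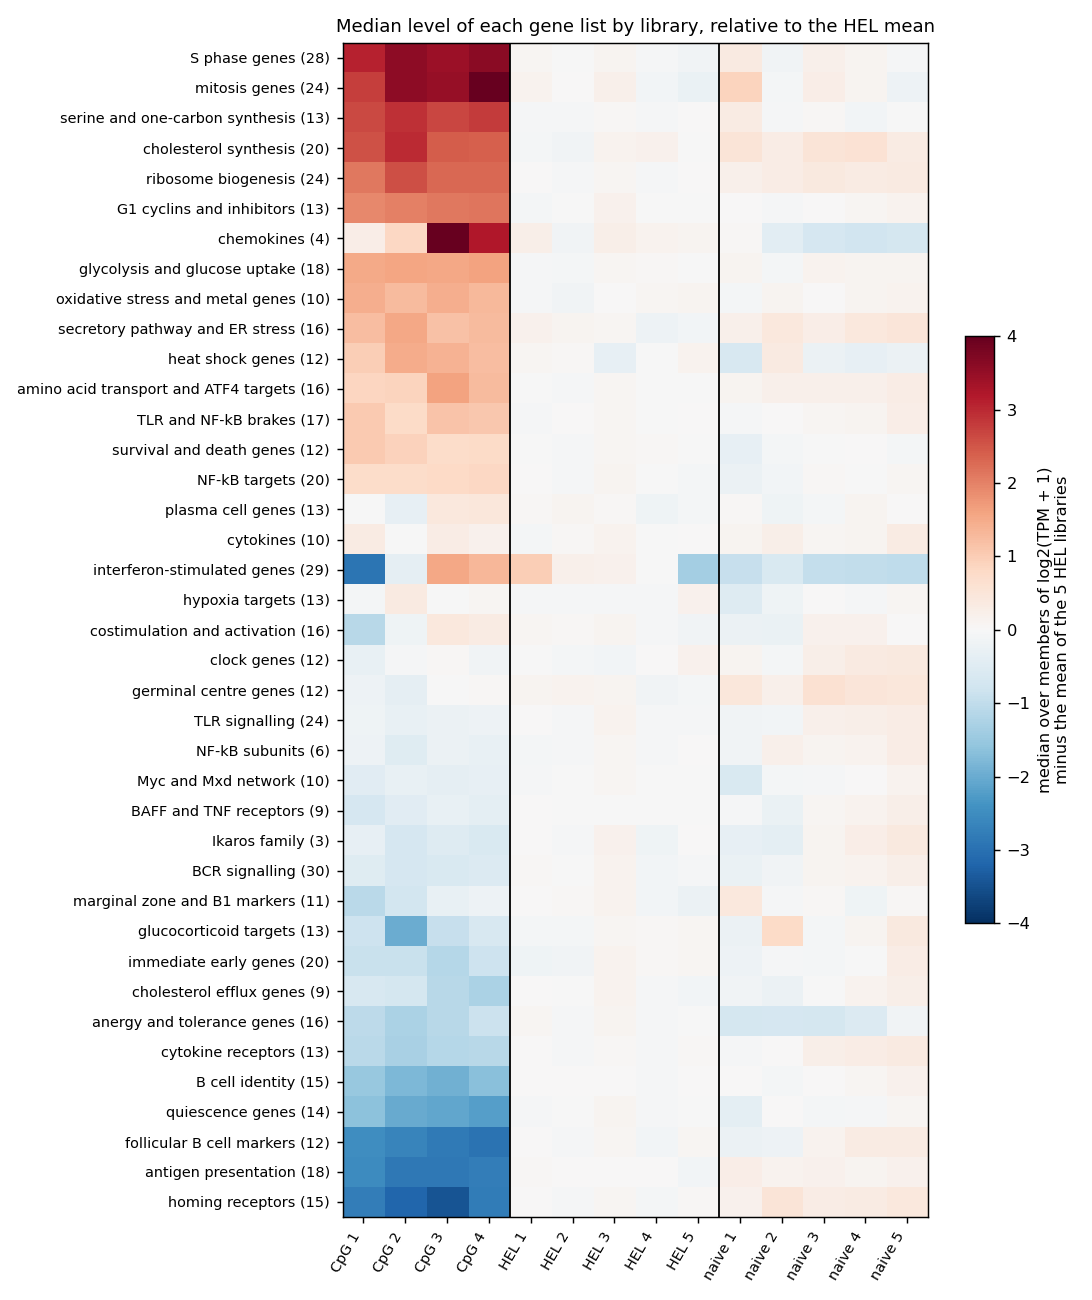
Median over each gene list of log2(TPM + 1) minus the HEL mean, for every CpG, HEL and naive library in columns, with lists in rows and colours that stop at 4 either way. S phase, mitosis, one-carbon, cholesterol synthesis and ribosome biogenesis genes are raised in all 4 CpG libraries, and homing, antigen presentation and follicular genes are lowered in all 4.

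Enzymes that feed nucleotide synthesis moved with them. Of 13 serine and one-carbon genes tested, all rose, 11 of them 4-fold, with a median of 2.76. Shmt1 and Shmt2, the cytosolic and mitochondrial serine hydroxymethyltransferases, were 129, 245, 177 and 232 and 692, 675, 806 and 704 TPM in CpG cells. In HEL cells they were 8.07, 6.94, 7.52, 7.04 and 6.76 and 77.1, 67.4, 84.1, 69.5 and 67.8 TPM, so that the log2 differences were 4.53 ± 0.16 and 3.28 ± 0.08. Mthfd2, the mitochondrial folate enzyme, rose by 3.73 ± 0.14, its cytosolic relative Mthfd1 by 3.19 ± 0.10, Psat1 of serine synthesis by 3.60 ± 0.17, and Ppat, the first enzyme of purine synthesis, by 2.91 ± 0.10. Amino acid transport and ATF4 target genes rose in 14 of 16 cases and 6 rose 4-fold, with a median of 1.10. Slc7a5, the large neutral amino acid transporter, was 164, 185, 226 and 212 TPM in CpG cells and 16.3, 12.5, 18.5, 13.1 and 12.3 TPM in HEL cells (log2 difference 3.68 ± 0.13). Slc43a1, another transporter of large neutral amino acids, rose by 2.44 ± 0.10.

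Some ATF4 targets split by CpG library block. Asns, asparagine synthetase, was 19.2, 32.6, 70.9 and 57.4 TPM in CpG cells and 0.764, 0.912, 0.565, 0.397 and 0.429 TPM in HEL cells. Trib3, a pseudokinase induced by stress, was 8.7, 11.1, 35.7 and 28.5 TPM in CpG cells and 1.26, 1.4, 0.797, 1.7 and 1.76 TPM in HEL cells. Chac1, which degrades glutathione, was 3.72, 6.83, 23.5 and 16.9 TPM in CpG cells and 0.117, 0.118, 0.0579, 0 and 0 TPM in HEL cells. In each case CpG replicates 3 and 4 were above replicates 1 and 2, and all 4 were above the HEL range, with log2 differences of 4.68 ± 0.31 for Asns and 3.42 ± 0.40 for Chac1. Ddit4, an inhibitor of mTORC1, was the only member to fall 4-fold, at 31.1, 18.5, 21.3 and 17.9 TPM in CpG cells and 191, 182, 262, 245 and 205 TPM in HEL cells.

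Glycolysis genes rose less evenly. Of 18 tested, 14 rose and 3 fell, 5 rose 4-fold, and the median was 1.61. The lactate transporter Slc16a1 was 102, 138, 129 and 135 TPM in CpG cells and 3.55, 3.74, 4.63, 3.91 and 3.43 TPM in HEL cells. Hexokinase 2 (Hk2) was 60.1, 77.2, 85.9 and 76.5 TPM in CpG cells and 4.58, 3.83, 4.3, 4.16 and 3.45 TPM in HEL cells. Both were separated by far more than the spread, 4.70 ± 0.11 and 3.90 ± 0.11 on the log2 scale. Pkm, Ldha and Tpi1, more abundant enzymes of the pathway, rose by 2.27 ± 0.09, 2.19 ± 0.06 and 2.11 ± 0.09, and each was short of 4-fold under the second scaling, Tpi1 also within CpG replicates 3 and 4. Of 13 hypoxia targets tested, 6 rose and 5 fell, with a median of 0.08, or -0.15 under the second scaling. Among them Vegfa and Adm, secreted factors of blood vessels, rose by 1.99 ± 0.17 and 1.92 ± 0.21 and Ankrd37 fell, with a log2 difference of -2.91 ± 0.24.

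Cholesterol genes were divided, with those of synthesis and uptake higher and several of export lower. Of 20 genes of cholesterol synthesis and uptake tested, all rose, 14 of them 4-fold, with a median of 2.59. Sqle, squalene epoxidase, was 124, 161, 110.2 and 106 TPM in CpG cells and 6.23, 5.62, 9.12, 9.34 and 7.37 TPM in HEL cells. Fdps, which makes farnesyl diphosphate, was 165, 242, 193 and 179 TPM in CpG cells and 12, 11, 13.4, 16.7 and 12.8 TPM in HEL cells. No CpG library came near the HEL range of either gene. These differences were 3.89 ± 0.16 and 3.79 ± 0.13, and Lss and Hsd17b7 of the later steps rose by 3.25 ± 0.14 and 3.12 ± 0.12.

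Several genes of cholesterol export, known targets of the LXR receptors, were lower. Abca1, which loads cholesterol onto apolipoproteins, was 0.30, 0.336, 0.543 and 0.191 TPM in CpG cells and 44.8, 45.9, 47.9, 42.2 and 41.9 TPM in HEL cells. Abcg1, a second exporter, was 1.24, 2.05, 4.38 and 2.74 TPM in CpG cells and 72, 69, 86.2, 61.3 and 56.7 TPM in HEL cells. Apoe, a lipid carrier, was 3.93, 1.77, 2.12 and 0.627 TPM in CpG cells and 234, 247, 189, 161 and 150.2 TPM in HEL cells. The HEL levels were at least an order of magnitude above the CpG levels for each of them, with log2 differences of -5.09 ± 0.09, -4.34 ± 0.22 and -6.07 ± 0.28. Mylip, a ubiquitin ligase, fell, with a log2 difference of -3.29 ± 0.09. Of the 9 genes of this list tested, these 4 fell 4-fold, and 2 rose and 5 fell at an adjusted p under 0.05, with a median of -0.93.

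Chaperones and redox genes were higher in CpG cells in part. Of 12 heat shock genes tested, 9 rose, 3 of them 4-fold, with a median of 1.16. Hspd1, the mitochondrial chaperonin, was 294, 394, 318 and 279 TPM in CpG cells and 28.1, 27.9, 28.2, 25.8 and 29.3 TPM in HEL cells. Hsp90aa1 and Hsph1, chaperones of the cytosol, rose by 2.76 ± 0.15 and 2.08 ± 0.27, the second short of 4-fold under the second scaling and without CpG replicate 2 or HEL replicate 3. Of 10 oxidative stress and metal genes tested, 6 rose, 4 of them 4-fold, and 2 fell, with a median of 1.32. Over all genes 49.6% rose, 30.7% fell and 7.17% rose 4-fold, with a median of 0.24. Tfrc, the transferrin receptor, was 45.8, 91.9, 53.6 and 69.1 TPM in CpG cells and 4.03, 3.71, 3.81, 4.27 and 5.99 TPM in HEL cells. Prdx1, Txnrd1 and Hmox1, which remove peroxides, reduce thioredoxin and degrade haem, rose by 2.78 ± 0.07, 2.47 ± 0.12 and 2.61 ± 0.20.

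Secretory pathway genes shifted widely but seldom by 4-fold. Of 16 tested, 14 rose and 1 fell, with a median of 1.32, and Sdf2l1, a cofactor of the ER chaperone BiP, alone rose 4-fold, to 489.6, 412, 384 and 397 TPM in CpG cells against 103, 103, 84, 74.5 and 69.5 TPM in HEL cells. Creld2 and Sel1l, of protein folding and ER-associated degradation, rose by 1.91 ± 0.09 and 1.66 ± 0.09. Of 13 plasma cell genes tested, 6 rose and 5 fell with a median of 0.30, close to the 49.6%, 30.7% and 0.24 over all genes. Prdm1, the Blimp-1 gene, was 3.59, 2.13, 10.1 and 4.4 TPM in CpG cells and 0.269, 0.378, 0.406, 0.248 and 0.221 TPM in HEL cells, a log2 difference of 2.06 ± 0.29 that was short of the 4-fold call under the second scaling, within CpG replicates 1 and 2, and without CpG replicate 3. Derl3, of ER-associated degradation, rose by 1.76 ± 0.20 and Zbtb20, a transcriptional repressor known from plasma cells, fell, with a log2 difference of -1.62 ± 0.13.

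Nearly all genes that define B cells were lower in CpG cells. In these bulk samples fewer cells of a type, less RNA of a gene per cell and a smaller share of a larger RNA total cannot be told apart. Of 15 B cell identity genes tested, 14 fell, 7 of them 4-fold, and none rose, with a median of -1.66. The receptor chains Cd79a and Cd79b fell to 1569.6, 962, 1159.6 and 1045 and 1054, 783, 750.3 and 770.0 TPM in CpG cells. In HEL cells they were 8123, 7207, 7706, 7603 and 7403 and 3966, 3839.8, 3731, 3799 and 4084 TPM, and the log2 differences were -2.71 ± 0.13 and -2.22 ± 0.10. The IgD heavy chain (Ighd) was 174, 233, 105 and 151 TPM in CpG cells and 2630.3, 2489, 2708, 2162 and 2568 TPM in HEL cells, a log2 difference of -3.97 ± 0.18. The IgM heavy chain gene Ighm was named after its values were seen, with a log2 difference of -0.11 that did not pass (limma adjusted p 0.218). Blk, a Src-family kinase of B cells, fell, with a log2 difference of -3.63 ± 0.07, and Cd72 and Fcrla, an inhibitory receptor and an Fc receptor-like protein, had log2 differences of -2.56 ± 0.16 and -2.54 ± 0.10.

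Follicular markers showed the same direction with wider differences. Of 12 tested, 11 fell, 8 of them 4-fold, and none rose, with a median of -2.73. Fcer2a encodes CD23, the low-affinity IgE receptor whose promoter region also drives the Cre of the CpG cells. It was 59.4, 31.4, 4.61 and 6.59 TPM in CpG cells and 729, 789, 925, 779 and 1011 TPM in HEL cells. CpG replicates 3 and 4 were the lowest, and the log2 difference was -5.63 ± 0.60. The complement regulators and receptors Cd55 and Cr2 were 4.76 to 7.0 and 4.32 to 9.41 TPM in CpG cells, and 95.6 to 141 and 49.4 to 70.2 TPM in HEL cells. Of 11 marginal zone and B1 markers tested, 2 rose and 6 fell, with a median of -0.60. Cd1d1, which presents lipids, and Hes1, a Notch target, fell, with log2 differences of -2.97 ± 0.12 and -1.88 ± 0.20. Zbtb32, a repressor known from innate-like B cells, was 3.12, 2.5, 42.7 and 21.3 TPM in CpG cells and 2.02, 1.41, 1.18, 1.39 and 0.757 TPM in HEL cells, a log2 difference of 2.23 ± 0.66. It followed the CpG library blocks, and the 4-fold call was lost without CpG replicate 3 or 4, within CpG replicates 1 and 2, and against HEL replicates 4 and 5 alone.

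Receptors that guide B cells through lymphoid organs held the lowest median of all lists. Of 15 homing genes tested, 13 fell, 10 of them 4-fold, and 1 rose, with a median of -3.43. S1pr1, the receptor for exit into lymph and blood, was 11.3, 7.08, 7.78 and 8.02 TPM in CpG cells and 169, 149, 182, 146 and 153 TPM in HEL cells. Gpr183, the oxysterol receptor that positions B cells in follicles, was 6.06, 4.19, 4.55 and 3.86 TPM in CpG cells and 60.1, 61.2, 73, 61.1 and 81.7 TPM in HEL cells. The log2 differences of these receptors were -4.09 ± 0.12 and -3.60 ± 0.13. Itgb7, an integrin chain of gut homing, was 12.9, 5.12, 4.53 and 4.98 TPM in CpG cells and 320.2, 298, 337, 340.2 and 334 TPM in HEL cells. Ccr6, the receptor of the chemokine CCL20, was 5.62, 2.84, 0.67 and 1.38 TPM in CpG cells and 120.3, 120.0, 134, 114 and 109 TPM in HEL cells. They fell, with log2 differences of -5.49 ± 0.23 and -5.24 ± 0.32. Klf2, a factor that drives S1pr1 in lymphocytes, was 113, 53.7, 62.4 and 65.3 TPM in CpG cells and 719.8, 753, 782, 758 and 856 TPM in HEL cells (log2 difference -3.43 ± 0.18), and S1pr4 fell, with a log2 difference of -3.98 ± 0.12.

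Genes of antigen presentation were mostly lower. Of 18 antigen presentation genes tested, 16 fell, 10 of them 4-fold, and none rose, with a median of -2.75. H2-Aa, an MHC class II alpha chain, was 1338, 1001, 864 and 1122 TPM in CpG cells and 13967, 13694, 13375, 14276 and 14057 TPM in HEL cells. H2-Eb1, a class II beta chain, was 697, 607, 500.5 and 789.8 TPM in CpG cells and 7087, 7209, 7403, 7430.0 and 7538 TPM in HEL cells. The groups lay apart, with log2 differences of -3.70 ± 0.11 and -3.52 ± 0.12. H2-DMa, of the peptide loader, was 115, 70.1, 83.7 and 92.3 TPM in CpG cells and 1123, 1111, 1102, 1226 and 1134 TPM in HEL cells, and H2-Oa and H2-Ob, the chains of its inhibitor, fell, with log2 differences of -4.55 ± 0.14 and -4.99 ± 0.12. Ciita, the coactivator that class II genes depend on, was 26.4, 17.8, 21.2 and 23.2 TPM in CpG cells and 295, 282, 330.2, 224 and 251 TPM in HEL cells (log2 difference -3.58 ± 0.13). Summed over the 18 genes, the list held 12594 to 16885 TPM in CpG cells and 81384 to 87828 TPM in HEL cells. In naive cells it held 96837 to 110450 TPM. The class I genes H2-K1 and H2-D1 and their light chain B2m, named after their values were seen, fell by less, with log2 differences of -1.03 ± 0.31, -1.24 ± 0.28 and -0.79 ± 0.31.

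Immediate early genes were lower in CpG cells in more cases than they were higher. Of 20 immediate early genes tested, 3 rose and 13 fell, 1 rose 4-fold (Atf3) and 4 fell 4-fold, with a median of -0.80. Summed over the list, CpG cells held 1203 to 1569 TPM, HEL cells 1907 to 2382 TPM and naive cells 2089 to 2593 TPM. Whether the list differed between HEL and naive cells was not tested. Egr3, a zinc finger factor induced by antigen receptors and linked to tolerance, was 1.09, 1.13, 0.394 and 0.738 TPM in CpG cells and 52.9, 56.4, 87, 63.2 and 67.6 TPM in HEL cells. Nab2, a corepressor of the Egr factors, was 6.33, 5.84, 4.71 and 5.07 TPM in CpG cells and 40.2, 48.3, 41.6, 66.4 and 65.5 TPM in HEL cells. Fos was 0.22, 0.118, 0.40 and 0.749 TPM in CpG cells and 12.9, 3.4, 4.55, 6.95 and 9.33 TPM in HEL cells, the widest spread of these 3 in HEL cells. The log2 differences were -5.17 ± 0.16, -3.02 ± 0.16 and -2.52 ± 0.30. Zfp36, which destabilises cytokine mRNAs, fell, with a log2 difference of -2.03 ± 0.17, and was short of the 4-fold call without CpG replicate 1 or 2, within CpG replicates 3 and 4, and on the ratio of mean TPM.

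Of 16 anergy and tolerance genes tested, 3 rose and 12 fell, 1 rose 4-fold and 4 fell 4-fold, with a median of -1.13. Nrgn, neurogranin, a calmodulin-binding protein, was 1.9, 2.95, 3.88 and 6.77 TPM in CpG cells and 59.1, 47.3, 60.8, 51.9 and 47.9 TPM in HEL cells. Dgka, which removes diacylglycerol, was 17.6, 13.5, 14.1 and 12 TPM in CpG cells and 119, 115, 113, 101 and 124 TPM in HEL cells. They fell, with log2 differences of -3.57 ± 0.23 and -2.92 ± 0.10. Tox, a nuclear factor known from exhausted T cells, was 7.28, 5.27, 1.76 and 2.79 TPM in CpG cells and 0.613, 0.0648, 0.255, 0.0596 and 0.109 TPM in HEL cells, and its log2 difference of 2.00 ± 0.29 was called 4-fold by so little that the call was lost in 8 of the alternative settings. Of 30 BCR signalling genes tested, 4 rose and 19 fell, none rose 4-fold and 4 fell 4-fold, with a median of -0.57. Dok3, an adaptor that dampens BCR signals, was 28.8, 13.3, 20.2 and 21 TPM in CpG cells and 353, 345, 348, 364 and 354 TPM in HEL cells (log2 difference -4.07 ± 0.16). The other 3 were Blk, Cd79a and Cd79b.

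Costimulation genes were divided. Of 16 tested, 5 rose and 6 fell, with a median of 0.03, or -0.23 under the second scaling. Cd44 alone rose 4-fold. Cd86, the ligand of CD28 on T cells, was 2.0, 3.69, 4.39 and 5.87 TPM in CpG cells and 28.3, 21.2, 21.6, 20.7 and 13.7 TPM in HEL cells. Naive cells held 9.78 to 13.6 TPM, between the groups, and the log2 difference of -2.18 ± 0.24 was short of the 4-fold call without CpG replicate 1, within CpG replicates 3 and 4, against HEL replicates 4 and 5 alone, and with a sex term. Icosl, the ligand of ICOS, was 50.3, 48, 45.6 and 51.4 TPM in CpG cells and 287, 263, 266, 257 and 281 TPM in HEL cells, and fell, with a log2 difference of -2.45 ± 0.06. Slamf1 and Tnfrsf18, receptors of lymphocyte activation, fell, with log2 differences of -2.41 ± 0.17 and -2.97 ± 0.16.

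Cytokine receptors were mostly lower. Of 13 tested, 2 rose and 9 fell, 4 of them 4-fold, with a median of -1.13. Il9r, the interleukin 9 receptor, was 0.947, 0.839, 0.858 and 1.14 TPM in CpG cells and 51.7, 46.8, 52.8, 42 and 50.9 TPM in HEL cells. Il6ra, the receptor of the cytokine whose own gene rose, was 3.59, 3.17, 2.17 and 1.8 TPM in CpG cells and 38.1, 35, 35.4, 35 and 39.8 TPM in HEL cells. The log2 differences were -4.68 ± 0.09 and -3.38 ± 0.14, and Il27ra and Il4ra fell, with log2 differences of -2.88 ± 0.13 and -2.16 ± 0.11, Il4ra short of 4-fold within CpG replicates 1 and 2. Of 9 BAFF and TNF receptor genes tested, 3 rose and 5 fell, with a median of -0.47. Ltbr, the lymphotoxin beta receptor, rose by 2.21 ± 0.11 at low levels of 3.24 to 4.7 TPM in CpG cells and 0 to 0.0868 TPM in HEL cells, and Cd27 fell, with a log2 difference of -2.88 ± 0.10. Of 12 survival and death genes tested, 9 rose and 2 fell, with a median of 0.94. The pro-apoptotic Bax was 539, 498, 489 and 485 TPM in CpG cells and 129.7, 127, 118, 134 and 137 TPM in HEL cells, so that it rose by 1.95 ± 0.06 beside the anti-apoptotic Bcl2l1.

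Nearly all genes of resting lymphocytes fell. Of 14 quiescence genes tested, 13 fell, 7 of them 4-fold, and none rose, with a median of -1.99. Pik3ip1, an inhibitor of PI3 kinase, was 2.26, 2.25, 2.55 and 2.68 TPM in CpG cells and 55.2, 47.9, 52.8, 49.3 and 51.2 TPM in HEL cells. Txnip, which limits glucose uptake, was 29.4, 25.7, 33.3 and 28 TPM in CpG cells and 287, 281, 298, 311 and 316 TPM in HEL cells. Btg2, an antiproliferative gene, was 52.5, 32.6, 35.9 and 35.4 TPM in CpG cells and 294, 298, 340.2, 328 and 295 TPM in HEL cells. The groups lay far apart in each, with log2 differences of -3.93 ± 0.07, -3.32 ± 0.08 and -2.98 ± 0.12. Pdcd4 and Sesn1, inhibitors of translation and of mTORC1, fell, with log2 differences of -2.51 ± 0.23 and -2.20 ± 0.16, both short of 4-fold within CpG replicates 1 and 2. Of 13 glucocorticoid targets tested, 3 rose and 8 fell, 6 of them 4-fold, with a median of -0.64. Cxcr4, a chemokine receptor, was 8.99, 20.1, 13.3 and 26.4 TPM in CpG cells and 148, 179, 199.8, 195 and 234 TPM in HEL cells, and Tsc22d3, which encodes GILZ, fell, with a log2 difference of -2.91 ± 0.15. Klf13 and Sgk1 fell, with log2 differences of -2.39 ± 0.13 and -2.12 ± 0.18, Sgk1 short of 4-fold without HEL replicate 5.

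Germinal centre and clock genes held no 4-fold call in either direction. Of 12 germinal centre genes tested, 3 rose and 6 fell, with a median of -0.15. Mybl1, a Myb family factor, rose by 1.96 ± 0.12 and Mef2b, a partner of Bcl6, by 1.85 ± 0.39, while Basp1 fell, with a log2 difference of -0.86 ± 0.21 with overlapping values. Of 12 clock genes tested, 5 rose and 5 fell, with a median of -0.12, and the repressors Cry1 and Bhlhe40 rose by 1.71 ± 0.12 and 1.58 ± 0.19.

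Interferon-stimulated genes were spread widely within both groups. Of 29 tested, 3 fell (Ifit3, Stat2 and Ifi203), none rose, none was called 4-fold and 26 did not pass, and the median was 0.08, or -0.19 under the second scaling. Their summed level was 324, 1850, 7585 and 5470 TPM in CpG replicates 1 to 4 and 3199, 2029, 1924, 1764 and 787 TPM in HEL replicates 1 to 5. Isg15, a ubiquitin-like modifier named after its values were seen, was 9.97, 241, 1488 and 1095 TPM in CpG cells and 316, 183, 149, 166 and 38.7 TPM in HEL cells. The 2 highest and the lowest of these 9 values were all CpG libraries, and the log2 difference of 0.85 ± 1.25 did not pass. Irf7, the factor that amplifies interferon expression, also named after its values were seen, was 4.22, 152, 1096 and 673 TPM in CpG cells and 266, 146, 127, 129.5 and 34.6 TPM in HEL cells, with the same order of libraries. Stat2, which carries the interferon signal, was 12.2, 28.7, 98.7 and 73.9 TPM in CpG cells and 149.7, 109, 122, 93.1 and 67.8 TPM in HEL cells, and its limma adjusted p of 0.0298 became larger than 0.05 when, among other settings, CpG replicate 1 or 2, or HEL replicate 1, 2 or 3, was left out.

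**Figure D4:**
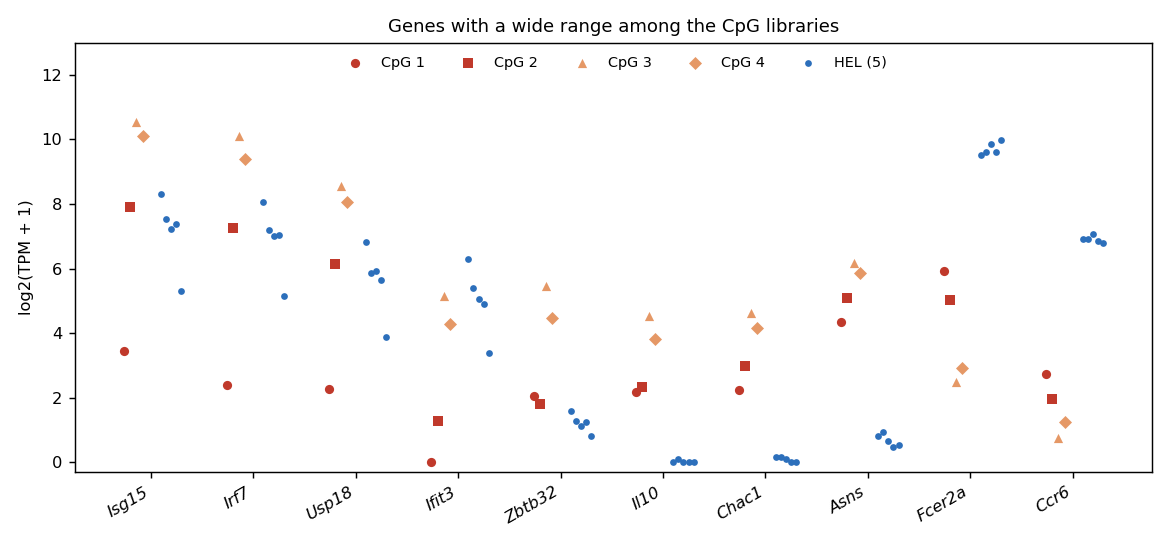
Level on a log2(TPM + 1) axis in each library of genes with a wide range among the CpG libraries, with a symbol for each CpG replicate left of the 5 HEL points. Isg15 runs over 9.97 to 1488 TPM in CpG cells and 38.7 to 316 TPM in HEL cells, while Asns, at 19.2 to 70.9 TPM, keeps every CpG library above the HEL range of 0.397 to 0.912 TPM.

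The Ikaros gene itself was 172, 135, 149 and 140.1 TPM in CpG cells and 214, 195, 261, 200.3 and 205 TPM in HEL cells. Ikzf1 was lower in all 4 CpG libraries, with a log2 difference of -0.53 ± 0.10 (limma adjusted p 5.05e-04). The CpG cells carry Cre and 1 floxed allele, and the deposited values give 1 level per gene, so they do not show which part of Ikzf1 the reads cover. Its relative Ikzf3, which encodes Aiolos, was 66.8, 57.7, 46.5 and 50.7 TPM in CpG cells and 243, 248, 258, 214 and 244 TPM in HEL cells, and fell, with a log2 difference of -2.11 ± 0.10, short of 4-fold within CpG replicates 1 and 2. Of 3 Ikaros family genes tested, 2 fell.

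Naive cells show how each group stands to unstimulated cells. The 5 naive Ikaros-sufficient libraries came from MD4 mice that were Cd23-cre Ikzf1(fl/+) in 3 cases and Ikzf1(fl/+) without Cre in 2, sorted directly from the mice. Of the 756 genes 4-fold higher in CpG cells, the naive mean was nearer to the HEL mean for 752 (99.5%). The same held for 360 of the 370 lower genes (97.3%). The naive libraries share the preparation of the HEL cells and neither culture nor CpG, so this count cannot tell the stimulus from the culture. The naive libraries come from 2 library series, whose numbers begin with 36 and 57, and 56 of 10520 genes (0.532%) differed 4-fold with no overlap between them. Of the 4-fold genes of the main comparison, 608 higher and 368 lower ones could be tested between these series. Among them 1 higher and 4 lower genes differed 4-fold between the series, and 10 higher and 36 lower genes differed at least 2-fold with an adjusted p under 0.05. No naive library was of the series of the CpG libraries, whose numbers begin with 49. These counts therefore do not measure how that series differs from the series of the HEL libraries.

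A few genes were the other way round, with naive cells nearer to CpG cells. Among the higher genes these were Tox, Lrrc25, Hmox1 and Pim1, the last a kinase of cytokine signalling. Pim1 was 129.8, 97.1, 267 and 192 TPM in CpG cells, 24.6, 27.3, 29, 24.8 and 37.8 TPM in HEL cells and 76.1 to 139 TPM in naive cells. Among the lower genes they were A530032D15Rik, Lck, Pgpep1l, Rgs10, Nrgn, Ccr1, Nab2, Gm1821, BC051226 and Crisp3. Lck, a Src-family kinase of T cells that some B cells express, was 2.81, 5.31, 7.76 and 10.1 TPM in CpG cells, 67.5, 68, 83, 64.2 and 46.6 TPM in HEL cells and 7.68 to 26.4 TPM in naive cells. Rgs10, an inhibitor of G protein signals, was 8.44, 4.37, 3.98 and 5.97 TPM in CpG cells, 80.9, 67.1, 63, 55.9 and 29.4 TPM in HEL cells and 3.97 to 19.3 TPM in naive cells. Nrgn was 5.52 to 8.67 TPM and Nab2 9.1 to 15.2 TPM in naive cells, so that Nrgn overlapped the CpG range and Nab2 lay above it.

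The same contrast was made in cells without Ikaros, with 4 CpG libraries of Cd23-cre Ikzf1(fl/-) cells and 5 HEL libraries of Cd23-cre Ikzf1(fl/fl) cells. It shares no sample with the comparison above, but it shares its culture, its library series and its kinds of stimulus. There 1063 of 10720 genes were 4-fold higher (9.92%) and 466 were 4-fold lower (4.35%). Of the 756 higher genes, 755 could be tested in the deficient cells, all of those had the higher mean in CpG cells, and 696 (92.1%) were 4-fold higher, which is 65.5% of the 1063. Of the 370 lower genes, 368 could be tested, all of those had the lower mean in CpG cells, and 302 (81.6%) were 4-fold lower, which is 64.8% of the 466. The median difference of the 756 genes was 2.61 in Ikaros-sufficient and 2.92 in Ikaros-deficient cells, and that of the 370 genes was -2.50 and -2.61 in the same order.

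Among the 4-fold genes the size of the contrast differed between Ikaros-sufficient and Ikaros-deficient cells for some, and its direction for none of those tested. In the sufficient cells only the CpG group carried Cre, while in the deficient cells both groups did. The Ikzf1 alleles of the CpG and HEL groups also differed within each contrast. Loss of Ikaros cannot be told apart from these differences. The difference between both contrasts passed for 2479 of 11050 genes (22.4%), for 279 of the 756 higher genes and for 116 of the 370 lower genes. The log2 difference of Apoe was -6.07 ± 0.28 in Ikaros-sufficient and -2.83 ± 0.19 in Ikaros-deficient cells, a difference of -3.24 ± 0.36 (limma adjusted p 7.37e-06). Deficient cells held 0.104 to 0.917 TPM of Apoe with CpG and 7.48 to 13.9 TPM with HEL, and sufficient cells 0.627 to 3.93 TPM with CpG and 150.2 to 247 TPM with HEL. That of Egr3 was -5.17 ± 0.16 in sufficient and -2.94 ± 0.28 in deficient cells, a difference of -2.23 ± 0.36. Gadd45b rose by 2.78 ± 0.13 in sufficient and 4.87 ± 0.10 in deficient cells, where it stood at 398 to 531 TPM with CpG and 12.9 to 18.2 TPM with HEL. For Tlr9 the contrast was 0.06 ± 0.15 in sufficient and -1.31 ± 0.12 in deficient cells, a difference of 1.38 ± 0.20 (limma adjusted p 1.29e-04).

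**Figure D5:**
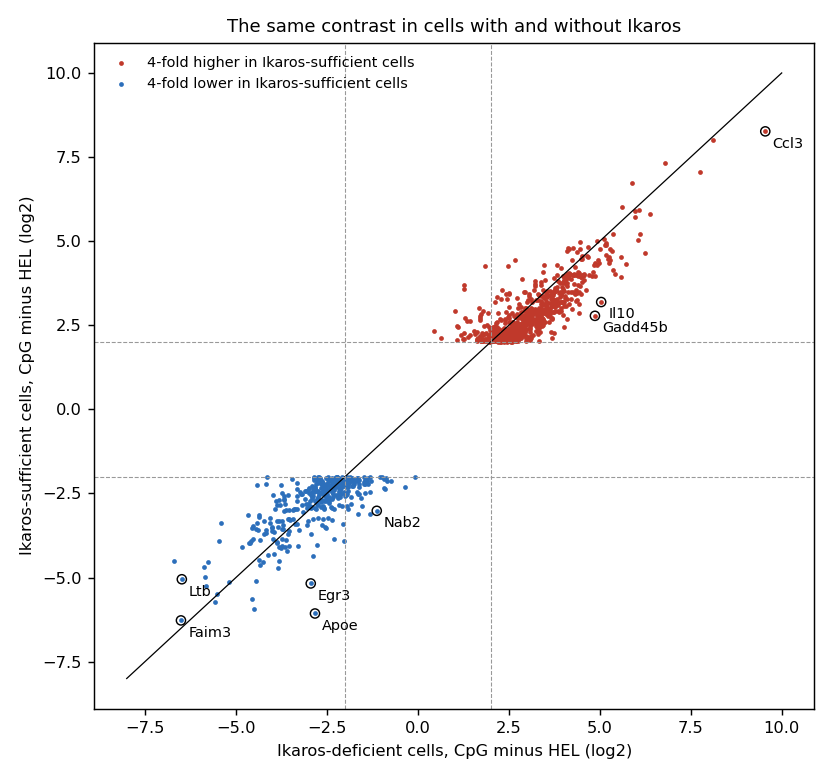
Log2 difference, CpG minus HEL, of each gene called 4-fold in Ikaros-sufficient cells (y axis) and of the same gene in Ikaros-deficient cells (x axis), with 8 genes marked, equal values on the diagonal and dashed lines at 4-fold. The points lie in the quadrants of equal direction, with Apoe at -6.07 in sufficient and -2.83 in deficient cells and Gadd45b at 2.78 and 4.87.

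The 4-fold line divides genes that barely differ from each other. Just inside it on the higher side were Ddx56 and Timeless, with 89.1 to 112 and 44.5 to 67.7 TPM in CpG cells and 23.8 to 26.7 and 11.8 to 14.4 TPM in HEL cells. Just outside were Nefh and Tubb4b, with 4.57 to 6.54 and 809 to 1087 TPM in CpG cells and 0.461 to 0.777 and 187 to 273 TPM in HEL cells. On the lower side Cd37 and Zfp36l2 were just inside, with 579 to 977 and 34.9 to 54.4 TPM in CpG cells and 2605 to 2740 and 140 to 202 TPM in HEL cells. Vat1 and Dll1 were just outside, with 4.45 to 13.8 and 0.0449 to 2.72 TPM in CpG cells and 25.1 to 45.0 and 3.44 to 8.33 TPM in HEL cells.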

How the data were processed

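RNA was prepared with the RNeasy Plus Mini kit and selected on poly(A) beads, per the labels. The authors deposited TPM values for 24732 genes per library. Per the submitters' processing notes, featureCounts 1.5.0, TopHat 1.4.1 with Bowtie, deepTools 3.0.1 and SAMtools 1.4 were used in the series, on build mm9. What each tool did, which annotation was used and whether counting used strand is not given in the sources used here. The ChIP-seq (4) and ATAC-seq (8) samples were left out.

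Read numbers were recovered from the steps of the deposited TPM within each gene, and came out whole for 18843 of 18843 genes above 0 (tolerance 0.01). Main tests were made with limma 3.58.1 in R 4.3.3, on the log2 of TPM + 1 and with its trend option, for genes with at least 1 TPM in at least 4 libraries, and Benjamini-Hochberg adjustment over all genes. A 4-fold call needs an adjusted p under 0.05, a log2 difference of at least 2 in size and no overlap. The fit was checked on simulated counts for the main comparison, drawn with the same spread setting for every gene and without library blocks. At a limma adjusted p under 0.05 it recovered 55.2% of 1.5-fold, 97% of 2-fold and 100% of 4-fold changes. It also called 12 unchanged genes. The simulated 4-fold changes had a median fitted log2 size of 1.86, below the threshold of 2, so the 4-fold call can miss such changes. Replicates differed beyond counting noise (chi-square per degree of freedom of 9.69 to 54.6 in CpG and 9.66 to 28.5 in HEL pairs), so each counts as 1 sample.

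The 12 most raised and 12 most lowered 4-fold genes with a mean of at least 5 TPM in the higher group are named, without receptor segments and clone names. Of each gene list up to 6 members called 4-fold are named, filled up to 3 with members past an adjusted p of 0.05, and Ikzf1, Ikzf3 and Tlr9 always. A few genes that this rule names are not reported here. Members and lists were chosen with earlier results of these data known, and the lists are described by counts and medians only. Alternatives were a pseudocount of 0.1, no filter and a filter of 5 TPM, median-ratio scaling, limma-voom on the recovered reads, all 28 libraries in 1 fit, the ratio of means, overlapping models left out, each replicate left out, and, chosen after seeing the data, HEL libraries with Y-linked transcripts alone, a sex term and each CpG library block alone. Promoters were matched by symbol.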

Additional observations from a re-analysis of the deposited data

Results flagged for a closer look

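In 14 of 330 groups of 4 or 5 libraries, 1 library stood apart from the others by Dixon's test (chance gives about 1 in 20). In CpG cells these were Faim3 in replicate 4 (52.3 TPM, the others 31.0 to 33.4), Itgb7 in replicate 1 (12.9 TPM, the others 4.53 to 5.12), Cd79b in replicate 1 (1054 TPM, the others 750 to 783) and Btg2 in replicate 1 (52.5 TPM, the others 32.6 to 35.9). In HEL cells the low values were Cd72 in replicate 5 (272 TPM, the others 329 to 347) and Zc3h12a in replicate 1 (18.1 TPM, the others 23.7 to 25.5). The high values in HEL cells were Rel in replicate 3 (56.8 TPM, the others 48.4 to 50.5), H2-DMa in replicate 4 (1226 TPM, the others 1102 to 1134), Il10 in replicate 2 (0.0708 TPM, the others 0), Rrp12 in replicate 3 (16.6 TPM, the others 12.7 to 13.8), Cdk6 in replicate 3 (4.23 TPM, the others 3.37 to 3.48), Lss in replicate 4 (8.69 TPM, the others 5.82 to 6.56), Tfrc in replicate 5 (5.99 TPM, the others 3.71 to 4.27) and Ikzf1 in replicate 3 (261 TPM, the others 195 to 214).

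The contrast of CpG with HEL differed between Ikaros-sufficient and Ikaros-deficient cells for 58 of 165 named genes, beside 2479 of 11050 genes (22.4%) over all. The named genes were mostly picked by the size of the contrast in sufficient cells. The difference of the contrasts, sufficient minus deficient, was 4-fold or more, among the genes that the naming rule gives and that are reported here, for Apoe (-3.24), Egr3 (-2.23) and Gadd45b (-2.09). Deficient cells held 1.64 to 4.77 TPM of Egr3 with CpG and 18.7 to 49.6 TPM with HEL.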

How the results depend on the processing

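Of 3264 values of named genes under the alternatives, 3231 kept their direction and their side of the threshold, 29 kept the direction but no longer passed (Ifit3, Stat2, Ifi203, Zbtb32 and Basp1), and 4 turned round. The 4 were all Tlr9, at -0.21 with median-ratio scaling, -0.032 with voom, -0.0449 without HEL replicate 5 and -0.079 with CpG replicates 1 and 2 alone, none of them past the threshold, and leaving out 1 replicate gave -0.0449 to 0.17. The largest Tlr9 difference was 0.34, both against HEL replicates 4 and 5 alone and with the sex term (limma adjusted p 0.087 and 0.051). The count of 4-fold lower genes, 370, was 587 with a pseudocount of 0.1, 656 with voom and 590 on the ratio of means. The count for deficient cells was 734 and that between naive library series 148 with a pseudocount of 0.1. These settings shrink the difference of low genes less than a pseudocount of 1 does. Leaving out 1 replicate gave 746 to 828 higher and 345 to 394 lower genes. CpG replicates 1 and 2 alone gave 752 and 391, replicates 3 and 4 alone 835 and 382, HEL replicates 4 and 5 alone 786 and 376, and the sex term 781 and 375. The planned sex term needed both sexes in both groups and was not run as planned. No paired analysis was possible because the labels give these groups no replicate numbers. The depth limits low genes: Il10 rests on 1 read over the 5 HEL libraries and Il6 on 6.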

Other observations

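Gm1821 showed 1 library far from its group, with 3.5, 6.31, 5.75 and 4.83 TPM in CpG cells and 166, 166, 6.97, 160.2 and 206 TPM in HEL cells, HEL replicate 3 being close to the CpG level. Crisp3 was 0, 0.0888, 0.101 and 0 TPM in CpG cells, 13.1, 14.7, 18.8, 10.5 and 18.8 TPM in HEL cells and 1.63 to 5.49 TPM in naive cells. Ccr1, a chemokine receptor, was 0.109, 0, 0 and 0.0923 TPM in CpG cells, 3.74, 3.82, 4.52, 4.14 and 3.76 TPM in HEL cells and 0.228 to 1.03 TPM in naive cells. The log2 difference of Ccr1 was -2.25 in Ikaros-sufficient and -4.43 in Ikaros-deficient cells (limma adjusted p of the difference 1.10e-06). Gm1821, Crisp3 and Ccr1 were singled out after their values were seen.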
